A study of Mus musculus with 8 samples.

Results

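Serum amyloid A3 (Saa3) and 7 other genes of the acute-phase response were followed through 8 RNA libraries of microglia, which are brain and optic nerve macrophages, obtained by flow sorting of mouse optic nerve. The 8 members, Saa1, Saa2, Saa3, Lcn2, Hp, Orm1, Ptx3 and Cp, were found by gene symbol among the 37447 genes of the deposited table, and each symbol had 1 row. The group was chosen by the levels measured in these libraries, with the FFC against FF contrast in view, so that contrast is described for the members without a p-value. The libraries came from C57BL/6 mice at 3 months of age, 4 from FF mice and 4 from FFC mice, with 2 females and 2 males in each genotype. Both genotypes carry Nf1 flox/flox alleles, in which the neurofibromatosis type 1 gene can be removed by Cre recombinase. FFC mice also carry GFAP-Cre, Cre under the promoter of an astrocyte gene, so that Nf1 is lost from astrocytes and the sorted microglia are not the targeted cells. The labels name the 4 libraries per genotype as biological replicates but do not say if animals were pooled. The p-values therefore measure the spread between these libraries. Values are FPKM (fragments scaled by transcript length and library size), and differences are FFC minus FF of mean log2(FPKM + 1).

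The acute-phase response is the change in secreted proteins that follows infection or injury. The liver is its main source, driven by interleukin-6, interleukin-1 and tumour necrosis factor through STAT3, C/EBP and NF-kB transcription factors. Some of its genes are also made outside the liver. In mice Saa3 is known as a product of activated macrophages and fat cells, while Saa1 and Saa2 encode the liver-derived forms that travel on high-density lipoprotein. Lcn2 encodes lipocalin-2, which binds bacterial iron carriers and is stored in neutrophil granules. Hp encodes haptoglobin, which captures free haemoglobin, Orm1 encodes the carrier protein alpha-1-acid glycoprotein, Ptx3 encodes a long pentraxin that binds microbes and complement, and Cp encodes ceruloplasmin, the copper enzyme that oxidises iron on its way out of cells.

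Of the 8 members, Saa3 was the 1 whose values did not overlap between the genotypes. It was listed at 0 in 3 FF libraries and lay at 8.70 FPKM or above in every FFC library. Lcn2 and Cp were expressed in every library of both genotypes, Hp was low and irregular, and Saa1, Saa2, Orm1 and Ptx3 had a mean below 1 FPKM over the 8 libraries.

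The 3 serum amyloid A members are neighbours and partly alike in sequence, and their start regions are shown so that Saa3 can be set beside the 2 members that stayed low. That of Lcn2, a member expressed in every library of both genotypes, follows. The sequences are the 250 bases before the start site in RefSeq (build GRCm38.p6), at chr7:46715677-46715926 on the minus strand for Saa3, chr7:46742981-46743230 on the minus strand for Saa1, chr7:46751583-46751832 on the plus strand for Saa2 and chr2:32387740-32387989 on the minus strand for Lcn2. Each runs 5′ to 3′ along the gene, and capitals mark matches on either strand to the NF-kB motif (GGG and CC with 5 bases of any kind between them) or the C/EBP motif TTNNGCAA.
Saa3: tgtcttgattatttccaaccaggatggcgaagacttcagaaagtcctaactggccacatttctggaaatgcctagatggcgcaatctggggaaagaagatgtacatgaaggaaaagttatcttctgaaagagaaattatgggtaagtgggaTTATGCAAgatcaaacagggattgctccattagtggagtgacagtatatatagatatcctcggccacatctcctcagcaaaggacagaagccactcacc
Saa1: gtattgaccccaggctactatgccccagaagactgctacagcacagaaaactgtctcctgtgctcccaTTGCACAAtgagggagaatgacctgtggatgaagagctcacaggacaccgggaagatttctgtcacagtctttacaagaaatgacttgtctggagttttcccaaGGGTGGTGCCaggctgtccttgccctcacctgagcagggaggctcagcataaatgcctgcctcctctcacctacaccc
Saa2: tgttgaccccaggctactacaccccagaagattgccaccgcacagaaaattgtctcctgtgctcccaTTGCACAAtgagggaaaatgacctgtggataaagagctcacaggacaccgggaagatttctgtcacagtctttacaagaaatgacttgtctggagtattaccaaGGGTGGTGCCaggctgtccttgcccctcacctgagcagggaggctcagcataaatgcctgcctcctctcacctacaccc
Lcn2: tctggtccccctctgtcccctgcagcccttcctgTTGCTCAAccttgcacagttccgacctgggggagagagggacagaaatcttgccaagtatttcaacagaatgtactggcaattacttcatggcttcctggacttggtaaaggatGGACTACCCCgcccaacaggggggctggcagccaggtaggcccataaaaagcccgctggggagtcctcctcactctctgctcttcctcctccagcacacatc

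RefSeq entries were found for 6 of the 8 members. The Saa1 and Saa2 windows were identical at 95.6% of 249 aligned bases, and Saa1 and Saa3 at 64.4% of 216. Saa3 held 1 C/EBP match, TTATGCAA, from position -99 to -92 before the start site, and no NF-kB match in these letters. Saa1 and Saa2 each held the C/EBP match TTGCACAA and the NF-kB match GGGTGGTGCC, and Lcn2 held TTGCTCAA and GGACTACCCC. No match to the STAT motif TTCNNNGAA lay in these windows, and no matches overlapped. Over all 32851 RefSeq windows of the same length, 9.56% held the C/EBP motif, 45.8% the NF-kB motif and 7.02% the STAT motif, both strands counted. A match describes letters and does not show that a factor binds there.

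Library depth could be compared although FPKM holds no read counts, because low values fell on steps whose size differs between libraries by a fixed factor. With FF 2 set to 1, relative depth was 4.81 in FF 1, 1.79 in FF 3, 1.6 in FF 4, and 1.82, 2.65, 2.21 and 2.96 across FFC 1 to FFC 4, and the 28 pairs of libraries fitted these factors within 0.01 on the log2 scale. The absolute number of fragments is unknown. FF 2 and FF 4 also resembled the others least, with median Spearman correlations of 0.398 and 0.464 against 0.507 to 0.597. Every one of 8 microglial markers was above 1 FPKM in every library, among them Csf1r and Aif1. Nf1 had 27.4, 60.8, 65.2 and 25.5 FPKM across FF 1 to FF 4 and 56.2, 47.8, 47.7 and 98.3 across FFC 1 to FFC 4, which checks no label because the deletion lies in other cells.

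Saa3 (ENSMUSG00000040026, chromosome 7, 53967368 to 53971046, in mm9 as are the other gene positions) had 0.401, 0, 0 and 0 FPKM across FF 1 to FF 4. In FFC 1 to FFC 4 it had 25, 8.70, 32.4 and 97.5 FPKM. All FFC libraries were above all FF libraries, and the lowest FFC library, FFC 2, was far above the 1 FF library with any signal. Among genes above 0 in the same library Saa3 stood at percentile 86.1, 73.1, 89.8 and 93.8 across FFC 1 to FFC 4 and at percentile 30.2 in FF 1.

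The mean log2(FPKM + 1) of Saa3 was 0.12 ± 0.24 for FF and 4.92 ± 1.37 for FFC (SD, n = 4 each). The difference was 4.79 ± 0.85 (SE from the limma fit), at rank 9 by size among 17753 tested genes. That rank is a description only, because Saa3 was chosen with this contrast in view. It also passed the filter on mean FPKM through FFC alone (mean of 40.9 FPKM, against 0.1 in FF). Its size depends on the constant added before the logarithm, since FF is at or near 0, and was 7.60 with a pseudocount of 0.1 and 2.80 with a pseudocount of 5. No fold is given against libraries listed at 0.

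**Figure D1:**
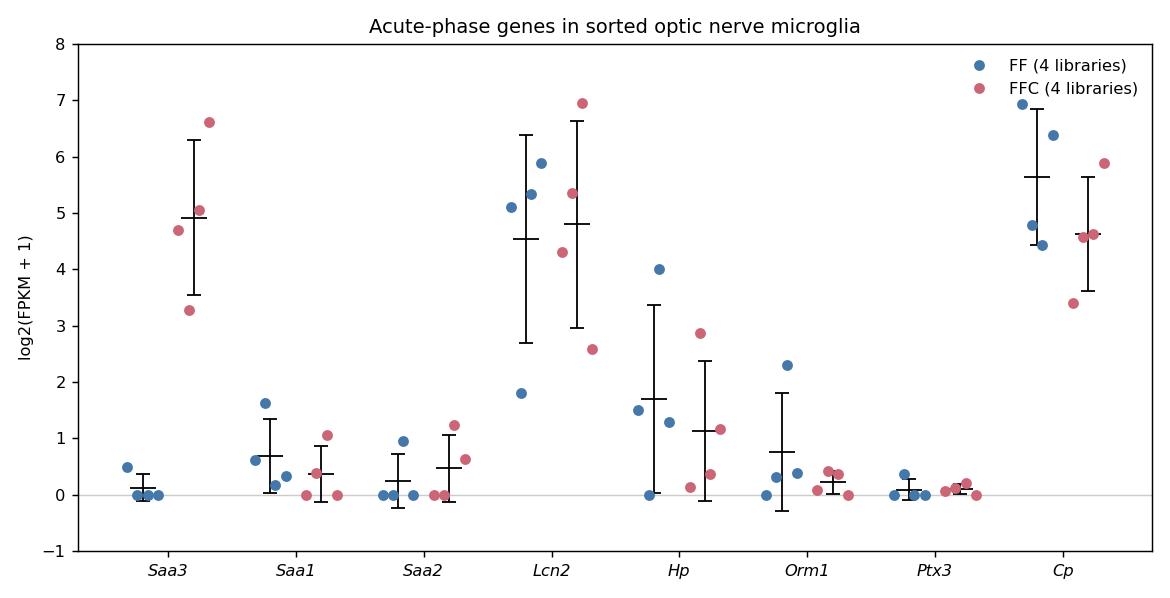
Levels of the 8 acute-phase genes in log2(FPKM + 1), with 1 point per library, blue for FF and red for FFC, and black bars for the mean and SD of 4 libraries. Saa3 separates the genotypes (0.00 to 0.49 in FF, 3.28 to 6.62 in FFC), while the other 7 genes overlap.

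Depth was taken into account by multiplying each FPKM by the relative depth of its library, which gives a number proportional to the fragments of that gene. For Saa3 this depth-scaled value was 1.93 in FF 1 and 45.5, 23.1, 71.6 and 289 across FFC 1 to FFC 4. A level of 8.70 FPKM, the lowest of FFC, would read 8.70 on this scale in the shallowest library, FF 2. The smallest depth-scaled value above 0 of Saa1, whose main transcript has 609 bases against 555 for Saa3, was 0.218, in FF 3. In FF 2, FF 3 and FF 4, where Saa3 was listed at 0, the related Saa1 had 2.07, 0.122 and 0.261 FPKM. Low Saa1 values set no detection limit for Saa3, because fragments may be split between Saa1 and Saa2 (94.4% identical, with Saa2 at 0.948 FPKM in FF 3). The part of depth in the zeros of Saa3 was not tested.

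Over all tested genes limma called 0 of 17753 between FFC and FF at an adjusted p under 0.05 (0.0%), and 1146 had an unadjusted p under 0.05 (6.46%). Of those 1146, 70.0% were higher in FFC, against 59.1% after upper-quartile scaling and 40.6% without FF 2 and FF 4. All 4 FFC values lay above all 4 FF values in 542 genes (3.05%) and below them in 229 (1.29%). Only 4 of the 8 members were among the tested genes to which these shares refer. Of the 8 members, 1 lay wholly above and 0 wholly below. That count is a description, because the contrast was known when the members were chosen. A narrower pattern was set with the values of Saa3 known, under 1 FPKM in every FF library and above 1 FPKM in every FFC library. It was met by 24 of 17753 genes (0.135%), and this share and the place of Saa3 among the 24 are descriptions only. Saa3 had the highest FFC mean of the 24, at 40.9 ± 39.0 FPKM (SD, n = 4), and 1700021F05Rik, at 37.4 ± 48.4, lay within that spread. The reverse pattern was met by 43 genes (0.242%).

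The titles of the libraries carry a month, and what it dates is not stated. Among the libraries titled November, Saa3 had at most 0.401 FPKM in FF 1, FF 2 and FF 3 and 25 in FFC 1. Among those titled December it was at 0 in FF 4 and at 8.70 to 97.5 in FFC 2, FFC 3 and FFC 4. With month as a covariate the Saa3 difference was 4.76. By sex, mean log2(FPKM + 1) was 0.24 in FF females and 5.66 in FFC females, and 0.00 and 4.17 in males. The difference between females and males in Saa3 did not pass the test (limma with genotype as covariate, 0.87 ± 0.85 SE, adjusted p = 0.953), and the interaction of genotype and sex was 1.25 ± 1.72 (adjusted p = 1.0). In each of these 2 tests limma called 0 genes (0.0%), with 709 (3.99%) and 567 at an unadjusted p under 0.05.

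Saa1 (ENSMUSG00000074115, chromosome 7, 53995871 to 53998350) had 0.523, 2.07, 0.122 and 0.261 FPKM for FF and 0, 0.304, 1.08 and 0 for FFC. Saa2 (ENSMUSG00000057465, chromosome 7, 54007203 to 54009684) had 0, 0, 0.948 and 0 for FF and 0, 0, 1.34 and 0.561 for FFC. Both genes overlapped between the genotypes, the Saa1 difference went from -0.32 to -0.01 without FF 2, that of Saa2 from 0.23 to -0.03 without FFC 3, and no library exceeded 2.07 FPKM. Their main transcripts are identical at 94.4% of 606 aligned bases, so the split of fragments between them is uncertain, whereas Saa1 and Saa3 are identical at 76.3% of 520. FFC 4, which had the highest Saa3 level, had no Saa1 and 0.561 FPKM of Saa2.

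The 4 serum amyloid A genes lie within 42.3 kb in the order Saa3, Saa4, Saa1 and Saa2. Saa4, the constitutive form, had 0.104 to 1.79 FPKM for FF and 0.0316 to 0.480 for FFC. Within 100 kb of Saa3 the table holds 9 genes, 6 of them with a mean of at least 1 FPKM. The 5 tested neighbours of Saa3 were Sergef, Tph1, Saal1, Hps5 and Gtf2h1, and their differences ranged from -0.34 (Tph1) to 0.58 (Saal1) with a median of -0.23. None of the 5 separated the genotypes. Saal1, the nearest tested neighbour, had 3.14, 1.94, 7.88 and 5.85 FPKM for FF and 8.98, 4.93, 5.02 and 9.28 for FFC.

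**Figure D2:**
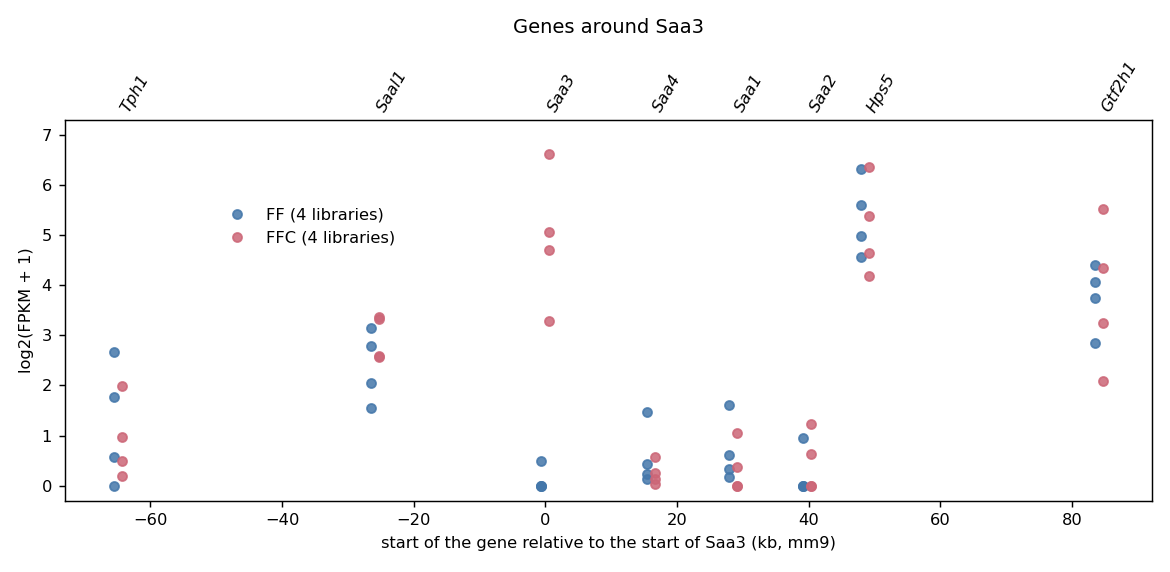
Levels in log2(FPKM + 1) of Saa3 and the genes that start within 100 kb of it, placed by the distance of their start from that of Saa3 in kb, with 1 point per library (blue FF, red FFC). The points of the genotypes stand apart at Saa3 and mix at the other genes. Sergef overlaps the window but starts farther away and is not drawn.

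Lcn2 (ENSMUSG00000026822, chromosome 2, 32240153 to 32243317) had 33.5, 2.49, 39.5 and 57.8 FPKM across FF 1 to FF 4 and 18.8, 40.1, 123 and 4.98 across FFC 1 to FFC 4. The lowest library was an FF library and the highest an FFC library, and the ranges overlapped almost wholly. The difference was 0.27 ± 1.05 (SE), and it changed sign without FF 2 (-0.64), without FFC 3 (-0.45), without both FF 2 and FF 4 (-0.42) or with month as a covariate (-0.35), and was 1.01 without FFC 4. Lcn2 and Saa3 did not follow each other among the FFC libraries, since FFC 4 had the highest Saa3 and the lowest Lcn2.

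Lcn2 differed between the genotypes in opposite directions in the sexes. In females it was 33.5 and 57.8 FPKM for FF and 18.8 and 4.98 for FFC, and in males 2.49 and 39.5 for FF and 40.1 and 123 for FFC. The difference between genotypes was -2.05 in females and 2.58 in males. The male value was 0.82 without FF 2, the shallowest library, and 4.35 without FF 3, and the female value was -1.19 without FFC 4. The interaction was -4.63 ± 1.84 (SE), with an unadjusted limma p of 0.029 and an adjusted p of 1.0 over all genes, so it did not pass. At an unadjusted p under 0.05 the interaction test had 3.19% of all genes. Neutrophil markers had a negative interaction in 9 of 9 tested, from -8.27 for S100a8 to -0.03 for Cxcr2 (smallest limma adjusted p = 0.785). S100a9 had -8.23, Camp -6.26 and Ngp -5.80. Of the microglial markers 7 of 8 were also negative (-0.59 to 0.59), and the median of all tested genes was -0.085. Not every neutrophil marker reversed between the sexes, since Ly6g, at 0 in all FF libraries, was not lower in FFC in either sex. The part of the neutrophil markers in the Lcn2 values was not tested. Saa3 was higher in FFC in both sexes.

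Cp (ENSMUSG00000003617, chromosome 3, 19857054 to 19909145) had the highest mean over all 8 libraries but not within FFC, with 121, 26.6, 20.7 and 82.4 FPKM for FF and 9.60, 22.8, 23.8 and 57.9 for FFC. The 2 highest values were in FF and the lowest in FFC 1, with overlap between the genotypes. The difference was -1.01 ± 0.77 (SE), -0.58 without FF 1 and -1.67 with month as a covariate. In females, FF had 121 and 82.4 FPKM and FFC had 9.60 and 57.9 (difference of -2.01, and -0.77 without FFC 1), while in males all 4 values lay between 20.7 and 26.6. The interaction for Cp did not pass (-2.0 ± 1.46 SE, limma adjusted p = 1.0).

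Hp (ENSMUSG00000031722, chromosome 8, 112099030 to 112103072) had 1.85, 0, 15.0 and 1.45 FPKM for FF and 0.0913, 6.32, 0.279 and 1.25 for FFC. FF 3 and FFC 2 stood above the rest. The difference of -0.57 ± 1.00 (SE) turned to 0.20 without FF 3 and was -1.63 without FF 2 and FF 4. Orm1 (ENSMUSG00000039196, chromosome 4, 63005594 to 63009197) had 0, 0.244, 3.92 and 0.310 FPKM for FF and 0.0671, 0.329, 0.285 and 0 for FFC, so that FF 3 was again the highest library. The Orm1 difference went from -0.53 to -0.02 without it. Orm1 and its neighbour Orm2 are identical at 91.0% of 775 aligned transcript bases, and fragments may be split between them. Orm2 had 0.934, 7.98, 7.70 and 0.538 FPKM for FF and 12.8, 1.22, 5.28 and 4.07 for FFC. Ptx3 (ENSMUSG00000027832, chromosome 3, 66023809 to 66029728) did not exceed 0.279 FPKM in any library and was listed at 0 in 3 FF libraries and in FFC 4.

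By mean over the 8 libraries the FPKM levels ran in the order Cp (45.5), Lcn2 (40.0), Saa3 (20.5), Hp (3.28), Orm1 (0.644), Saa1 (0.545), Saa2 (0.356) and Ptx3 (0.0707). Within FFC the order began with Lcn2 (46.6 ± 52.7), Saa3 (40.9 ± 39.0) and Cp (28.5 ± 20.6, SD, n = 4), 3 levels closer to each other than their spread. Within FF, Cp (62.6 ± 47.6) came before Lcn2 (33.3 ± 23.0), a gap wider than the SD of Lcn2 and narrower than that of Cp, and Saa3 stood near the bottom at 0.1 ± 0.2.

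Other acute-phase genes showed no common direction. Of 26 listed, 25 had complete values (Cfb has a missing value) and 15 had a mean of at least 1 FPKM. Of these, 7 were higher and 8 lower in FFC, with a median difference of -0.01 against 0.19 for all tested genes, of which 56.7% were higher in FFC, and the median kept its sign in 12 of 21 other settings. limma called 0 of the 15 (background 0.0%). Of the 15, 1 lay wholly above FF and 2 wholly below, against 3.05% and 1.29% of all genes. Serpina3f lay above, at 1.42, 0.611, 3.58 and 1.65 FPKM for FF and 11.0, 22.0, 25.7 and 13.8 for FFC. Serpina3n, a serpin known from reactive astrocytes, lay wholly below, at 7.35, 7.55, 3.11 and 16.5 for FF and 1.17, 0.537, 0.624 and 1.28 for FFC. Serpina3i also lay wholly below, at 46.4, 1.63, 19.6 and 1.27 for FF and 0, 0.290, 0.497 and 0.886 for FFC. The 3 belong to a cluster of similar serine protease inhibitor genes, and reads may be split between its copies (limma adjusted p = 0.556, 0.712 and 0.712).

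The list of cytokines, their receptors and the signalling genes of the acute phase includes the feedback inhibitor Socs3. It was described by counts and a median, without a test of the list as a whole. Of 20 listed, 18 were tested, 14 higher and 4 lower, against 56.7% of all genes higher, with a median difference of 0.42 against 0.19 for all genes. The median was 0.02 without FF 2 and FF 4. limma called 0 of them (background 0.0%), and 2 of the 18 lay wholly above FF, as did 3.05% of all genes. Tnf, tumour necrosis factor, had 0.999, 0, 6.87 and 1.12 FPKM for FF and 12.5, 17.0, 16.9 and 12.1 for FFC (limma adjusted p = 0.651). Il1a, interleukin-1 alpha, had 18.3, 15.1, 26.1 and 11.6 for FF and 55.4, 56.7, 50.9 and 42.2 for FFC (limma adjusted p = 0.712). Unlike Saa3, both were spread narrowly among the FFC libraries.

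Further genes of these lists, Il6, Il1b, Cebpd, Nfkb1, Fpr2, Tlr2, Slc22a17 and Cd163, were picked for their roles after their values were seen. Il6, interleukin-6, had 3.25, 0.367, 0.103 and 0 FPKM for FF and 0.0352, 0.844, 4.02 and 0.0418 for FFC. Il1b, interleukin-1 beta, had 16.9, 0.0940, 6.23 and 2.55 for FF and 33.5, 8.13, 14.5 and 1.33 for FFC. In FFC 4, where Saa3 was highest, both cytokines were near their lowest. Cebpd, a C/EBP factor, had 16.1, 12.4, 45.7 and 10.3 for FF and 5.92, 19.5, 11.8 and 73.6 for FFC. Nfkb1, an NF-kB subunit, had 16.9, 10.7, 44.2 and 4.75 for FF and 48.6, 27.2, 37.6 and 68.2 for FFC. Both factors were highest in FFC 4. Listed genes thus went both ways in that library, and their part in the Saa3 values was not tested. Il6, Il1b, Cebpd and Nfkb1 all overlapped between the genotypes.

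Receptors and binding partners of the members were also described without a test of the list as a whole. Of 18 listed, 15 were tested, 12 higher and 3 lower, against 56.7% of all genes higher, with a median difference of 0.62 against 0.19 for all genes. The median was 0.16 without FF 2 and FF 4. The microglial markers stood beside it with 6 of 8 higher and the same median of 0.62, and their part in the values of the receptors was not tested. limma called 0 (background 0.0%), and 0 of the 15 were without overlap. C1qa, a subunit of the complement protein to which Ptx3 binds, had 676, 60.7, 297 and 115 FPKM for FF and 638, 489, 432 and 1000 for FFC (limma adjusted p = 0.729). Fpr2, a formyl peptide receptor that serum amyloid A can activate, had 90.8, 0.546, 7.4 and 5.68 for FF and 1.61, 66.6, 14.4 and 2.77 for FFC. Tlr2, another receptor for serum amyloid A, had 8.17 to 52.4 for FF and 25.6 to 72 for FFC. Slc22a17, a receptor described for lipocalin-2, had 1.49 to 4.28 and 1.96 to 6.66, and Cd163, the scavenger receptor for haptoglobin bound to haemoglobin, 3.97 to 10.3 and 1.91 to 9.68.

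**Figure D3:**
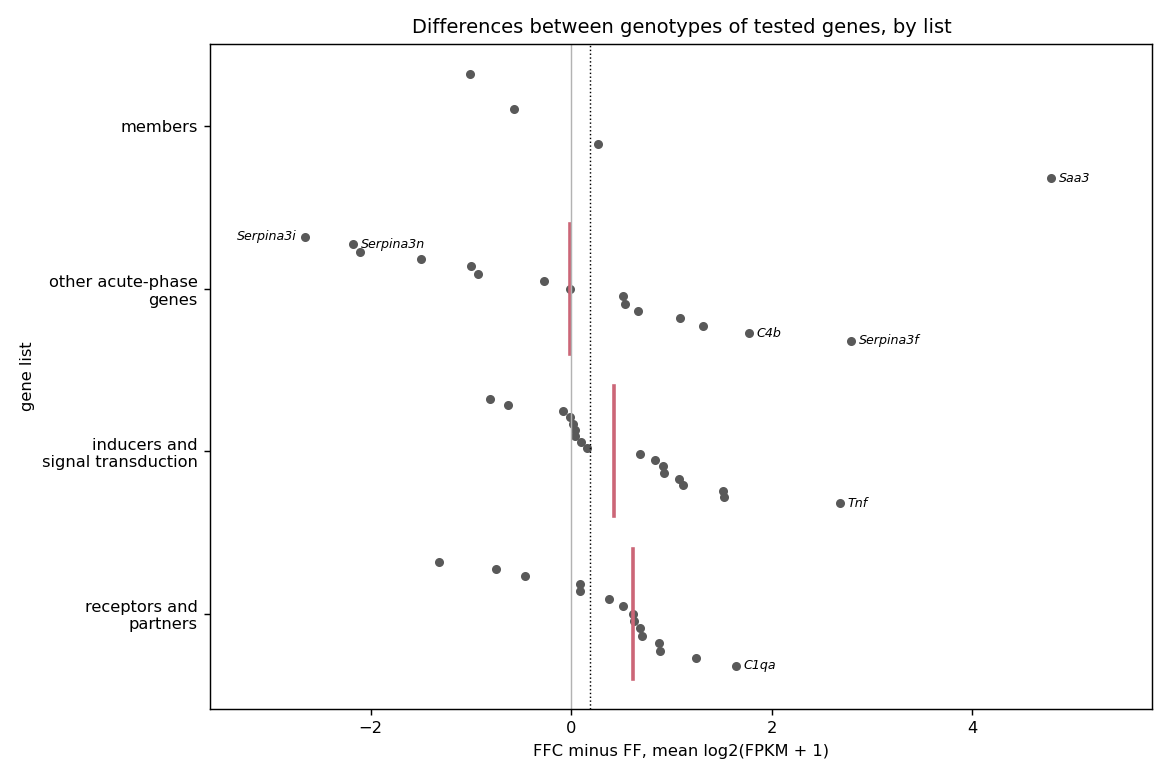
Differences between FFC and FF in mean log2(FPKM + 1) for tested genes of each list, with 1 point per gene, a red bar at the median of each list other than the members, and a dotted line at the median of all tested genes (0.19). Saa3 lies at 4.79, and the other acute-phase genes lie on both sides of 0.

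Markers of other cells were read beside these results, because in bulk RNA fewer cells of a type and less RNA per cell cannot be told apart. Of 11 neutrophil markers, the summed level was 193 to 2820 FPKM for FF and 7.64 to 963 for FFC. S100a8 had 975, 133, 218 and 52.9 FPKM for FF and 0.785, 278, 337 and 0 for FFC. S100a9 had 1130, 83.2, 64.3 and 130 for FF and 2.25, 156, 248 and 2.58 for FFC, and Camp 314, 21.2, 82.3 and 2.39 for FF and 0, 63.8, 156 and 0 for FFC. In FFC 1 and FFC 4, where S100a8, S100a9 and Camp were at or near 0, Saa3 had 25 and 97.5 FPKM. In FF 1, where these 3 were highest, it had 0.401.

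Ly6g departed from the other neutrophil markers. It was listed at 0 in all FF libraries and in FFC 1, and had 16.8, 132 and 60.8 FPKM in FFC 2, FFC 3 and FFC 4. Lcn2 was lowest within FFC in the library with the highest Saa3, FFC 4, and its FFC values in order of FFC 1 to FFC 4, 18.8, 40.1, 123 and 4.98, stood beside summed neutrophil levels of 7.64, 567, 963 and 66.2. In FF the same pairs were 33.5 and 2820, 2.49 and 244, 39.5 and 393, and 57.8 and 193.

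**Figure D4:**
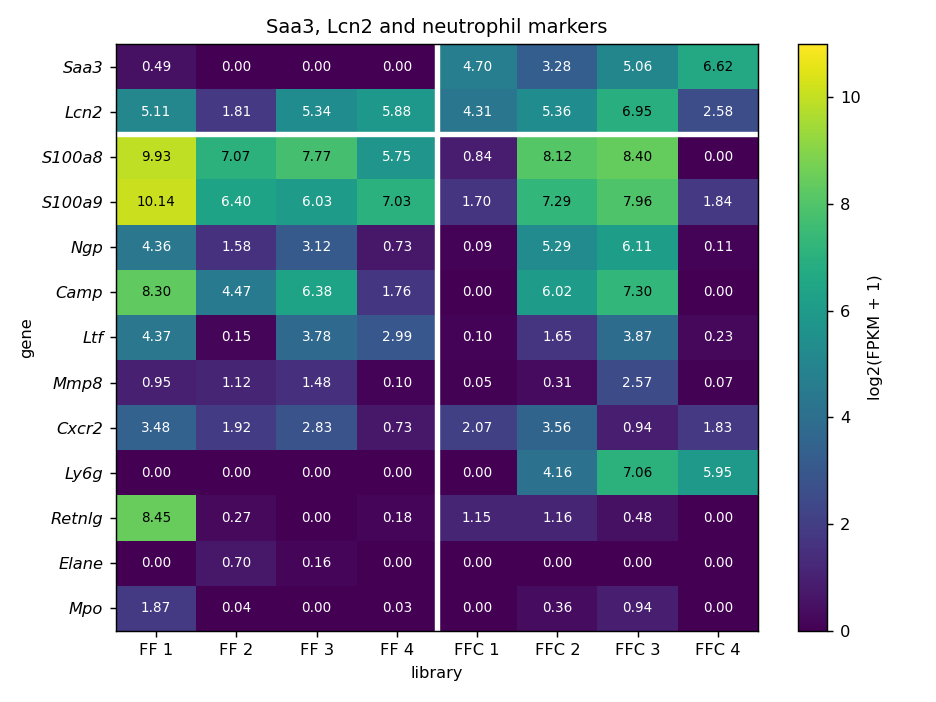
Heat map of log2(FPKM + 1) for Saa3, Lcn2 and the 11 neutrophil markers (rows) in the 8 libraries (columns), with the value printed in each cell. In FFC 1 and FFC 4 most neutrophil markers are near 0 while Saa3 reads 4.70 and 6.62.

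Hepatocyte markers were low, with sums over 5 genes of 0.345 to 2.86 FPKM for FF and 0.685 to 7.17 for FFC. Apoc3 was at 0 in every library and Alb did not exceed 1.6. Ttr, which the choroid plexus also makes, was the exception, at 0.541, 0, 0 and 0 for FF and 3.94, 6.89, 1.46 and 0.685 for FFC. Border macrophage markers (5 of 5 above 1 FPKM in every library) summed to 232 to 933 FPKM for FF and 88.1 to 697 for FFC. The 4 measured monocyte markers summed to 8.20 to 57.1 and 13.3 to 62.0, and F13a1 and Chi3l3 have missing values. Astrocyte markers summed to 114 to 325 and 91.8 to 189, and Gfap was between 0 and 1.03 FPKM in all libraries. The 2 leading astrocyte markers differed. Slc1a3 overlapped, at 49.7 to 192 for FF and 85.8 to 182 for FFC, while Clu had 127, 36.3, 23.4 and 61.9 for FF and 0.887, 1.84, 3.45 and 0.0124 for FFC, wholly lower (difference of -4.55). Mural and fibroblast markers summed to 3.59 to 89.7 and 5.37 to 15.5, and oligodendrocyte markers to 2.89 to 37.6 and 6.19 to 42.8. Endothelial markers summed to 19.1 to 34.2 for FF and 3.05 to 16.8 for FFC. Only these sums were without overlap, since 0 of the 5 endothelial genes separated the genotypes. By mean, 4 of them were lower in FFC and 1, Flt1, was higher (0.06). The part of these cells in the values of Saa3 was not tested.

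The genes most like Saa3 in level across the 8 libraries were Pycard, Afmid and Dnajc18, out of 8158 candidates with a mean of at least 5 FPKM. Pycard, the adaptor protein of the inflammasome, had a Pearson correlation with Saa3 of 0.973 and a Spearman correlation of 0.952, at 15.5, 8.13, 14.8 and 13.2 FPKM for FF and 82.3, 60.4, 60.9 and 160 for FFC. Afmid, a kynurenine formamidase, had 0.971 and 0.854, and Dnajc18, a heat shock cofactor, 0.968 and 0.903. All 3 separated the genotypes and were highest in FFC 4, as Saa3 is, which follows from how they were picked. For Lcn2 the 3 most alike were Epc2, Manea and Eif2d (Pearson 0.926, 0.924 and 0.921). For Hp they were Commd8, Dcaf17 and Add3 (0.959, 0.937 and 0.935), and for Cp they were Cdk1, Efcab4a and Tmem175 (0.957, 0.954 and 0.951), and all 9 overlapped between the genotypes. These correlations are descriptions over 8 libraries that also differ in depth.

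**Figure D5:**
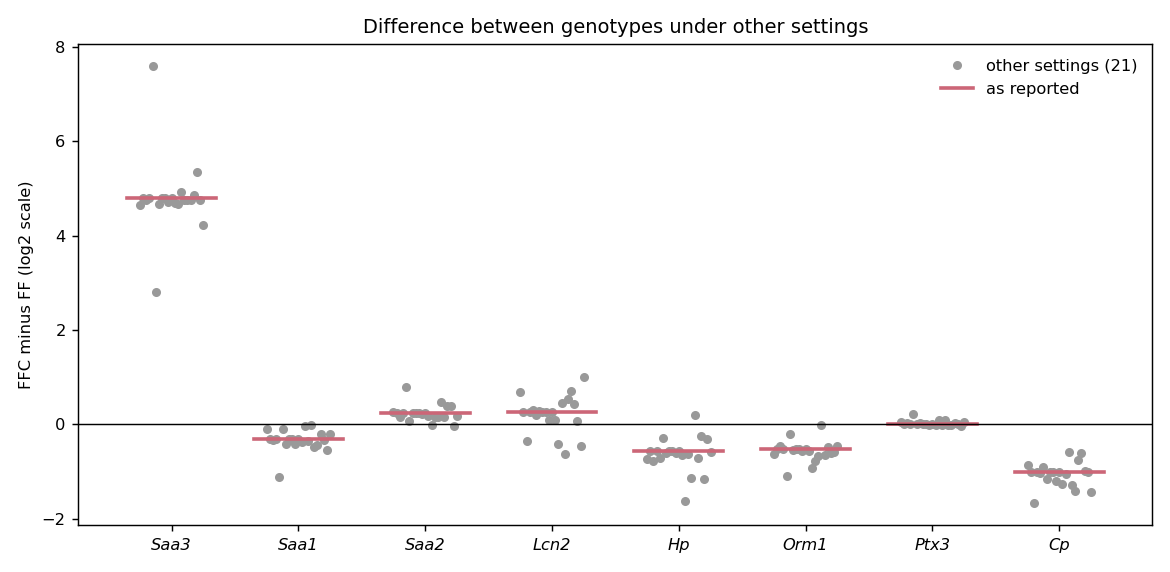
Difference between FFC and FF on the log2 scale for each member as reported (red bar) and under 21 other settings (grey points: other pseudocounts, filters, scalings, covariates, weights, or libraries left out). Saa3 stays between 2.80 and 7.60, with both ends set by the pseudocount, and Saa2, Lcn2, Hp and Ptx3 have points on both sides of 0.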

How the data were processed

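The authors deposited FPKM values, 1 column per library. Per the submitters' processing notes, the tools were Cufflinks 2.0.2, TopHat2 2.0.4, Bowtie2 2.0.0 and CASAVA 1.8.2, on mouse build mm9. Their roles, settings and annotation are not stated there. Per the labels' protocols, an Ovation kit amplified the cDNA, which can drop or enlarge single transcripts.

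Of 37447 genes, 447 had a missing value and were left out. Starts count from 0 in the table (21680 lengths then equal those of GENCODE M21, 420 otherwise) and are printed counted from 1. Values were used as log2(FPKM + 1). Genes averaging 1 FPKM or more (17753) were tested with limma 3.58.1 (R 4.3.3; trended empirical Bayes, two-sided p, adjusted by Benjamini-Hochberg, threshold 0.05), for genotype, for sex with genotype as a covariate and for their interaction and statmod 1.5.0 served a blocked fit. Of the 8 members, 4 passed this filter. Relative depth came from the most common ratio of values under 0.2 FPKM (937 to 2511 genes per pair of libraries). Other steps used Biopython 1.88, matplotlib 3.10.9, scipy 1.17.1, pandas 2.3.3, numpy 2.4.6 and Python 3.11.15. The fits were tested on simulated data.

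The members and gene lists were chosen with earlier results of these data known. Named genes were the members, up to 4 genes a list without overlap (otherwise the 2 with the smallest unadjusted p), the 3 genes most correlated with each member above the filter, leaving out predicted genes and small RNAs, and up to 3 leading markers per cell type; other markers, Alb, Ngp, Apoc3, Ly6g, Orm2, Saa4 and the neighbours of Saa3 were named after their values were seen. Some genes that this rule names are not reported here. Settings varied were the pseudocount, filter, scaling, weights, robust variances, added terms for sex, title month or replicate number, each library left out, and FF 2 and FF 4 left out together. Leaving out single libraries within a sex was added after seeing the data.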

Additional observations from a re-analysis of the deposited data

Results flagged for a closer look

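In 4 of 16 groups of 4 libraries (8 members in 2 genotypes) 1 library stood far from the other 3, where chance flags about 1 in 20. They were Saa3 in FF 1 (0.401 FPKM), Saa2 in FF 3 (0.948) and Ptx3 in FF 2 (0.279), each with the other 3 FF libraries listed at 0, and Orm1 in FF 3 (3.92, with at most 0.310 in the others). In 3 of the 4 the spread is set by values at 0, so the flag follows from the ties and the rate of 1 in 20 does not apply.

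Lcn2 went in opposite directions in the sexes. It was lower in both FFC females than in both FF females (difference of mean log2(FPKM + 1) of -2.05). It was higher in both FFC males than in both FF males (2.58, and 0.82 without FF 2). Among the males, FF 3 and FFC 2 were nearly equal, at 39.5 and 40.1 FPKM. Neutrophil markers had a negative interaction in 9 of 9 tested, from -8.27 for S100a8 to -0.03 for Cxcr2. S100a9 (-8.23), Camp (-6.26) and Ngp (-5.80) lay between. Of the microglial markers 7 of 8 were also negative (-0.59 to 0.59), and the median of all tested genes was -0.085. The part of the neutrophil markers in the Lcn2 values was not tested. With 2 libraries per sex and genotype, the limma interaction had an adjusted p of 1.0.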

How the results depend on the processing

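The Saa3 difference kept its sign in 21 of 21 settings, at 4.22 to 5.34 with 1 library left out and 4.67 without FF 2 and FF 4. Its sign could not change with libraries left out or another pseudocount or filter, because all FFC values lay above all FF values. Saa1, Orm1 and Cp also kept their sign in all 21, Hp in 20, Saa2 in 19, Lcn2 in 17 and Ptx3 in 15, and of 231 member and list values 226 moved by less than the spread between libraries. limma called 0 genes between genotypes, between sexes and for their interaction with all libraries. With 1 library left out the counts ranged from 0 to 2, from 0 to 4 and from 0 to 1, and without FF 2 and FF 4 they were 4 between genotypes and 5 between sexes. None was a member: between genotypes they were Mir15a, U11, SNORA65, Igkv17-127 and Igkv3-7 with 1 library left out, and U1, Igkv17-127, Igkv17-121 and Gm14399 without FF 2 and FF 4 (picked with their values known). All tested genes together had a median difference of 0.19, and of 0.02 to 0.07 after upper-quartile, equal-sum or quantile scaling, where 59.1%, 61.8% and 62.4% of genes at an unadjusted p under 0.05 were higher in FFC, against 70.0%. With the replicate number as a block 0 genes were called (1014 at an unadjusted p under 0.05) and the Saa3 difference was 4.79. Libraries with the same number are of the same sex, so the block also takes up sex. Their deviations from the genotype means were hardly correlated (-0.041, 0.034, -0.009 and -0.052). These correlations cannot settle whether the numbers mark a pairing, which the labels do not state. The absolute depth is unknown, which limits what a value of 0 shows.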
